A study of Mus musculus with 6 samples.

Results

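The genes described here are 37 genes of protein folding in the endoplasmic reticulum (ER) and of the ATF4 stress response, named by symbol and kept where the mean level over the 6 libraries was 1 or more in normalised read counts scaled to library size (CPM). All 37 met that minimum, out of 55401 genes in the table, and all 37 were among the 13590 genes with enough reads to test. The cells were cultured cancer-associated fibroblasts (CAFs), which are the activated fibroblasts found in tumours, and were profiled by RNA-seq. They came from tumours grown from mouse tumour organoids implanted orthotopically in the rectum of mice. The WT group holds 3 libraries from wild-type hosts and the Thbs2KO group 3 libraries from hosts carrying a Thbs2 knockout, the gene of the secreted matrix glycoprotein thrombospondin-2. Both groups carried the same kind of organoid tumour, and the cells of both were grown on fibronectin in medium with serum before lysis, so the measurements are of cells in culture. The labels give no strain, sex, age or organoid genotype, and do not say whether each replicate is its own mouse or culture, so every p-value reflects the spread between these libraries alone, which may be technical.

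Total expected counts were 19649066 to 24417464 per library, with the 3 Thbs2KO libraries the lowest. Thbs2 itself measured 2327 to 4166 CPM in WT and 412 to 538.2 CPM in Thbs2KO, so the labels matched its direction while reads of the gene remained. All 14 fibroblast markers averaged 1 CPM or more. Summed epithelial markers (11 genes, 5 averaging 1 CPM or more) ran from 24.8 to 34.3 CPM in WT and from 12.5 to 18.1 CPM in Thbs2KO. Summed markers of endothelial cells were 11.8 to 32.0 and 32.2 to 50.5 CPM, of leukocytes 3.90 to 15.1 and 2.35 to 9.24 CPM, and of pericytes or smooth muscle 198 to 856.8 and 276 to 392 CPM. The libraries most like each other were Thbs2KO replicates 1 and 2 (chi-square per degree of freedom 3.78, against 15.6 to 121.8 for the others). Over all genes 148 of 13590, or 1.09%, changed between the genotypes by the quasi-likelihood test of edgeR at an adjusted p (Benjamini-Hochberg) below 0.05, 0.552% higher and 0.537% lower.

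As background, proteins that enter the ER are folded by chaperones, oxidised by disulfide isomerases and, where they carry N-linked sugars, monitored by lectins that hold unfinished glycoproteins back. When unfolded protein accumulates, 3 sensors respond: ATF6 is cleaved to a transcription factor, IRE1 splices the messenger of Xbp1, and PERK phosphorylates eIF2alpha, which lets ATF4 be translated. ATF4 also responds to lack of amino acids and induces genes of amino acid synthesis, transport and redox balance. Fibroblasts secrete large amounts of collagen and other matrix proteins and so carry abundant folding machinery. Gene counts measure the amount of messenger and show neither the translation of Atf4, the cleavage of ATF6 nor the splicing of Xbp1.

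In Thbs2KO CAFs 1 of the 37 genes passed the test, Uggt2, which rose 4.01-fold. None was called lower. The background was 1.09% of tested genes called in either direction and 0.552% called higher, so 1 member of 37 is a small count to set against it. By DESeq2 the count was also 1 higher and 0 lower, where 2.22% and 2.93% of all genes were called, 5.15% in all. The groups did not overlap for 4 members that were higher in every Thbs2KO library (Uggt2, Hspa13, Dnajb9 and Edem1) and for 2 that were lower in every one (Ddit4 and Dnajc3). This held for 9.37% and 10.3% of all tested genes, 19.7% together. At an unadjusted p below 0.05, 2 members were higher (Uggt2 and Hspa13) and 2 lower (Chac1 and Ddit4), against 5.72% and 7.56% of all genes, 13.3% together. The median log2 fold change of the 37 was -0.024, beside -0.0038 over all tested genes, and 22 of 37 values were negative. The 95% interval of the fold change lay within 1.5-fold in both directions for 31 of 37 members, as for 56.0% of all tested genes. For 35 of 37 it lay within 2-fold; the exceptions were Uggt2 and Atf3.

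**Figure D1:**
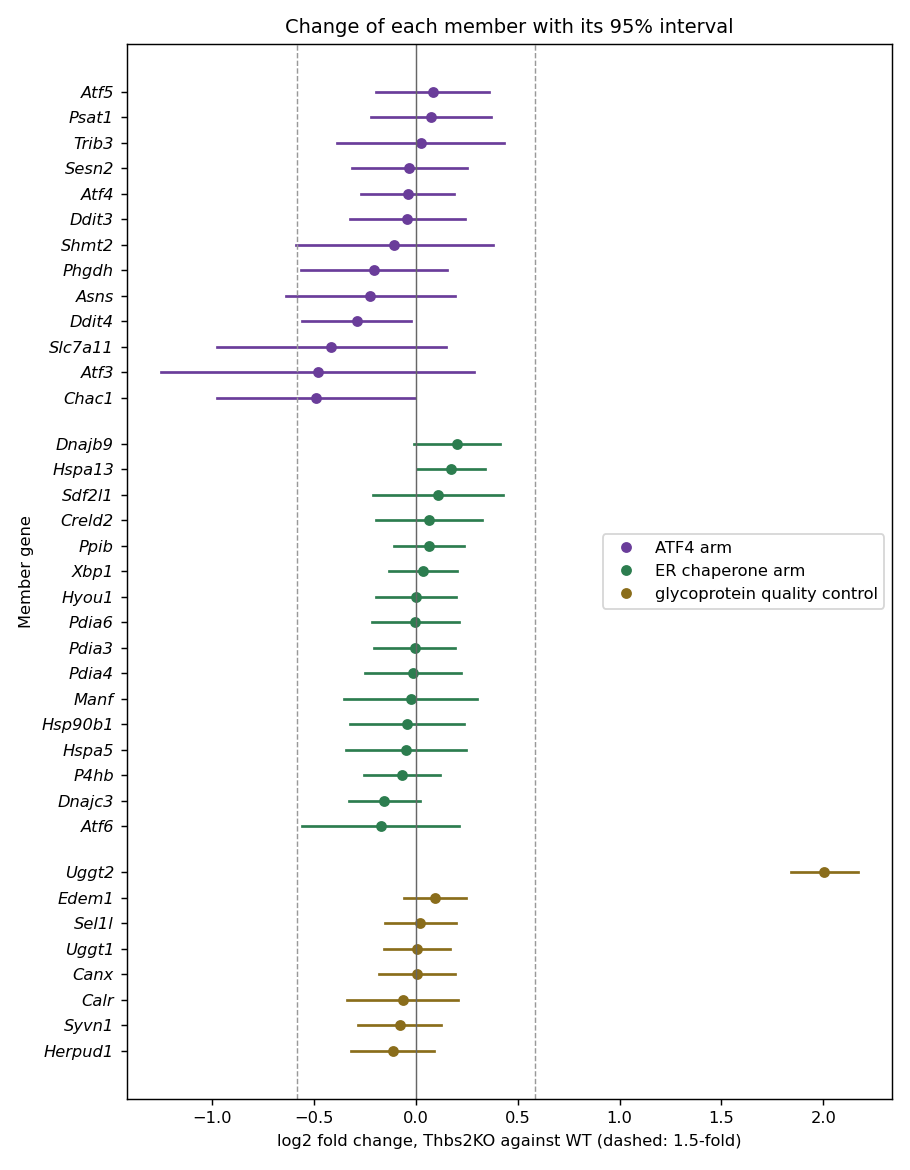
Log2 fold change of each of the 37 members, Thbs2KO against WT (x axis), with the 95% interval as a line and 1.5-fold in either direction as dashed lines; genes are on the y axis, coloured by arm. Uggt2 stands at 2.004, while the other members lie between -0.49 and 0.20.

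In the glycoprotein quality control arm (8 genes) Uggt2 rose and its paralogue Uggt1 did not pass the test. Both encode UDP-glucose:glycoprotein glucosyltransferases, the ER enzymes that recognise incompletely folded glycoproteins and add a glucose back, which returns them to the lectins. Uggt2 measured 20.3, 21.1 and 20.6 CPM in WT replicates 1, 2 and 3 and 81.0, 81.3 and 86.4 CPM in Thbs2KO replicates 1, 2 and 3. The 3 libraries of each genotype were close together and the groups were far apart. The mean was 20.7 ± 0.380 CPM in WT and 82.9 ± 3.02 CPM in Thbs2KO (SD over 3 libraries each). The log2 fold change was 2.004, its standard error 0.069 and its 95% interval 1.84 to 2.17 (edgeR, Benjamini-Hochberg adjusted p = 0.000122). It rests on 1445 reads summed over WT and 5142 over Thbs2KO. The call held in all 16 alternative fits, with adjusted p up to 0.0103, the value with a replicate block. With Thbs2KO replicates 1 and 2 summed to 1 library the adjusted p was 0.00237.

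Uggt1 measured 291, 268.8 and 272.7 CPM in WT and 283, 277.9 and 274.5 CPM in Thbs2KO, so its groups overlapped (log2 fold change 0.0047, 95% interval -0.16 to 0.17). Per kilobase of merged exons, Uggt1 stood at 21.6 ± 0.929 CPM per kilobase in WT and 21.7 ± 0.331 in Thbs2KO, and Uggt2 at 1.62 ± 0.030 and 6.48 ± 0.236 (SD, n = 3). Uggt2 thus made up 6.55%, 7.30% and 7.06% of the level per length of the pair in the WT libraries and 22.3%, 22.7% and 24.0% in the Thbs2KO libraries. Uggt1 stayed the more abundant messenger in all 6 libraries. The log2 CPM of Uggt2 minus that of Uggt1 was -3.74 ± 0.086 in WT and -1.75 ± 0.071 in Thbs2KO (SD, n = 3). The difference of 1.99 had a two-sided exact permutation p = 0.1, the smallest that 3 against 3 allows. Summed epithelial markers were lower in Thbs2KO and summed endothelial markers higher (values above), and their part in the Uggt2 difference was not tested. The epithelial sum was carried mostly by Krt19, at 9.86 to 14.6 CPM in WT and 3.57 to 6.21 CPM in Thbs2KO, and Lgr5, at 3.37 to 10.3 and 4.40 to 8.36 CPM. The endothelial sum was carried mostly by Kdr, at 2.50 to 26.3 CPM in WT and 21.5 to 44.97 CPM in Thbs2KO, and Tek, at 4.86 to 8.87 and 4.70 to 9.73 CPM. Of 7 endothelial markers 2 averaged 1 CPM or more, and Cldn5 was at 0 in all 6 libraries.

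**Figure D2:**
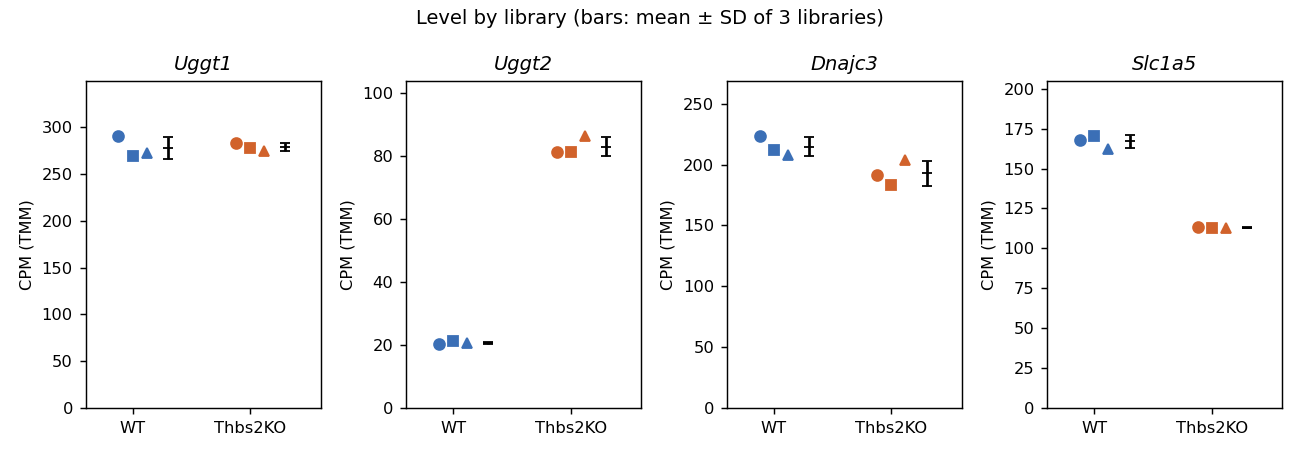
CPM (y axis, from 0) of Uggt1, Uggt2, Dnajc3 and Slc1a5 in each library, WT in blue and Thbs2KO in orange, with symbols for replicates 1 to 3 and bars for the mean and SD of 3 libraries. Uggt2 lies near 20.7 CPM in WT and 82.9 CPM in Thbs2KO, while Uggt1 overlaps between the genotypes.

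Uggt2 (ENSMUSG00000042104.18) lies on chromosome 14, 118985039 to 119099430, minus strand (mm10), and Uggt1 on chromosome 1, 36140027 to 36244720, minus strand. Within 500 kb of Uggt2 there were 15 other annotated genes in the table, of which 3 had enough reads to test and 0 changed by edgeR. The nearest of these is another member, Dnajc3, on the plus strand at 118937976 to 118981697. Dnajc3, an ER cochaperone also known as P58IPK, was lower in all 3 Thbs2KO libraries, at 191.6, 183.6 and 204.1 CPM against 224, 212.4 and 208.3 CPM in WT. Its change did not pass the test (log2 fold change -0.15, 95% interval -0.33 to 0.02, edgeR Benjamini-Hochberg adjusted p = 0.442), so these neighbours had point values of opposite sign. Dzip1 and Abcc4, the other tested neighbours, had log2 fold changes of 0.44 and -0.23 (adjusted p = 0.422 and 0.308). Noncoding transcripts flank Uggt2 on both sides and were too low to test: Gm16835, which overlaps its 5′ end on the other strand, had 37 reads summed over WT and 15 over Thbs2KO, and Gm49768, beyond its 3′ end, had 35 and 7. Without strand in the library, reads in the overlap cannot be assigned to either gene by strand. The overlap is of gene spans, and shared reads were not measured. The counts of Uggt2 were whole in every library.

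The 250 bases before the RefSeq start of each paralogue (GRCm38.p6) are shown because Uggt2 passed the test and Uggt1 did not. They are printed on the strand of the gene, and neither holds any of the 4 stress elements described next. The Uggt2 window is chr14:119099435-119099684 and is 71.6% G and C. The Uggt1 window is chr1:36244303-36244552, 57.2% G and C, and lies inside the GENCODE gene, whose annotated start is further upstream.
Uggt2: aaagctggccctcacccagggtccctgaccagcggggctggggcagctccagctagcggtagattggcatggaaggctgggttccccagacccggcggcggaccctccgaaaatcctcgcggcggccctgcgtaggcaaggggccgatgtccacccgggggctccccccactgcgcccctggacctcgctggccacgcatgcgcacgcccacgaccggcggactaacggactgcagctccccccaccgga
Uggt1: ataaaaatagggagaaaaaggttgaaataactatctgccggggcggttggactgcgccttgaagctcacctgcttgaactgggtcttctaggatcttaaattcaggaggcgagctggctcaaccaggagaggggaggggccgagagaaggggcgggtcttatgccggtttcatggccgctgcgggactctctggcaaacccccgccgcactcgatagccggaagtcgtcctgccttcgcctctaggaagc

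The other 7 members of the quality control arm had log2 fold changes from -0.11 to 0.09 and did not pass the test. Calr and Canx encode calreticulin and calnexin, the lectins that bind glycoproteins with 1 glucose left. Calr, the highest of all 37 members per length at 671 ± 13.4 CPM per kilobase in WT, measured 1919, 1905 and 1978 CPM in WT and 1986, 1989 and 1570.3 CPM in Thbs2KO. Canx measured 968, 952 and 960.5 CPM in WT and 1008, 976 and 905 CPM in Thbs2KO. For both lectins Thbs2KO replicate 3 was the lowest library and Thbs2KO replicates 1 and 2 the highest, so the groups overlapped. The remaining members act in ER-associated degradation. Edem1, which takes misfolded glycoproteins to degradation, measured 162, 155 and 158 CPM in WT and 174, 169 and 164.4 CPM in Thbs2KO, higher in all 3 (log2 fold change 0.09 with SE 0.063, edgeR Benjamini-Hochberg adjusted p = 0.622). Sel1l and Syvn1, which form the HRD1 ubiquitin ligase complex, and Herpud1, a scaffold of that complex, had log2 fold changes of 0.02, -0.08 and -0.11.

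In the ER chaperone arm (16 genes) 0 members changed by edgeR or DESeq2. The log2 fold changes ran from -0.17 to 0.20 with a median of -0.0036 (0.0014 under RLE scaling), and every interval lay within 1.5-fold. By unadjusted p below 0.05, 1 was higher and 0 lower. Hspa5, the ER chaperone BiP and the usual readout of the unfolded protein response, measured 1540.5, 1649 and 1684 CPM in WT and 1695, 1703 and 1316 CPM in Thbs2KO. Thbs2KO replicates 1 and 2 were above all WT libraries and replicate 3 below all of them. The mean was 1625 ± 75.0 CPM in WT and 1571 ± 221 CPM in Thbs2KO (SD, n = 3), a log2 fold change of -0.05 with a 95% interval of -0.34 to 0.24 (edgeR, Benjamini-Hochberg adjusted p = 0.924). Hsp90b1, the ER form of HSP90, likewise had Thbs2KO replicates 1 and 2 above all WT libraries and replicate 3 below them, at 2046, 2042 and 2096 CPM in WT and 2160.2, 2150.5 and 1690.5 CPM in Thbs2KO.

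Both transcription factors of this arm overlapped between the genotypes. Xbp1 measured 156, 149 and 148 CPM in WT and 160.2, 146 and 157 CPM in Thbs2KO (log2 fold change 0.03, 95% interval -0.13 to 0.20, edgeR Benjamini-Hochberg adjusted p = 0.903). Atf6 measured 77.5, 112 and 115 CPM in WT and 85.3, 84.9 and 99.5 CPM in Thbs2KO (log2 fold change -0.17, 95% interval -0.56 to 0.21, adjusted p = 0.745). WT replicate 1 was the lowest library for Atf6, while the other WT libraries were above all Thbs2KO libraries.

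The members with the smallest p of this arm were Hspa13 and Dnajb9, both higher in every Thbs2KO library. Hspa13, an atypical HSP70 of microsomes, measured 90.6, 84.4 and 89.6 CPM in WT and 94.1, 100.4 and 103.7 CPM in Thbs2KO (log2 fold change 0.17 with SE 0.070; edgeR, Benjamini-Hochberg adjusted p = 0.358). Dnajb9, the cochaperone ERdj4, which is an XBP1 target, measured 34.1, 35.0 and 33.9 CPM in WT and 37.5, 37.3 and 43.8 CPM in Thbs2KO (log2 fold change 0.20 with SE 0.089, adjusted p = 0.392). Gaps between the groups were as small as 3.5 CPM for Hspa13 and 2.3 CPM for Dnajb9.

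The disulfide isomerases Pdia3, Pdia4 and Pdia6 had log2 fold changes of -0.0057, -0.012 and -0.0015 (0.0035 for Pdia6 under RLE scaling), and P4hb one of -0.07. P4hb, protein disulfide isomerase and also a subunit of collagen prolyl 4-hydroxylase, was the second member by level per length, at 639.5 ± 22.8 CPM per kilobase in WT and 610.5 ± 10.3 in Thbs2KO (SD, n = 3). Ppib, the collagen-folding isomerase cyclophilin B, had a log2 fold change of 0.06. Hyou1, the nucleotide exchange factor GRP170, measured 313 to 338 CPM in WT and 303 to 346 CPM in Thbs2KO. Sdf2l1, a partner of BiP complexes, Creld2 and Manf, a BiP-binding secreted protein, had log2 fold changes of 0.11, 0.06 and -0.02. For these 3 genes Thbs2KO replicate 3 was the lowest library and Thbs2KO replicates 1 or 2 the highest.

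**Figure D3:**
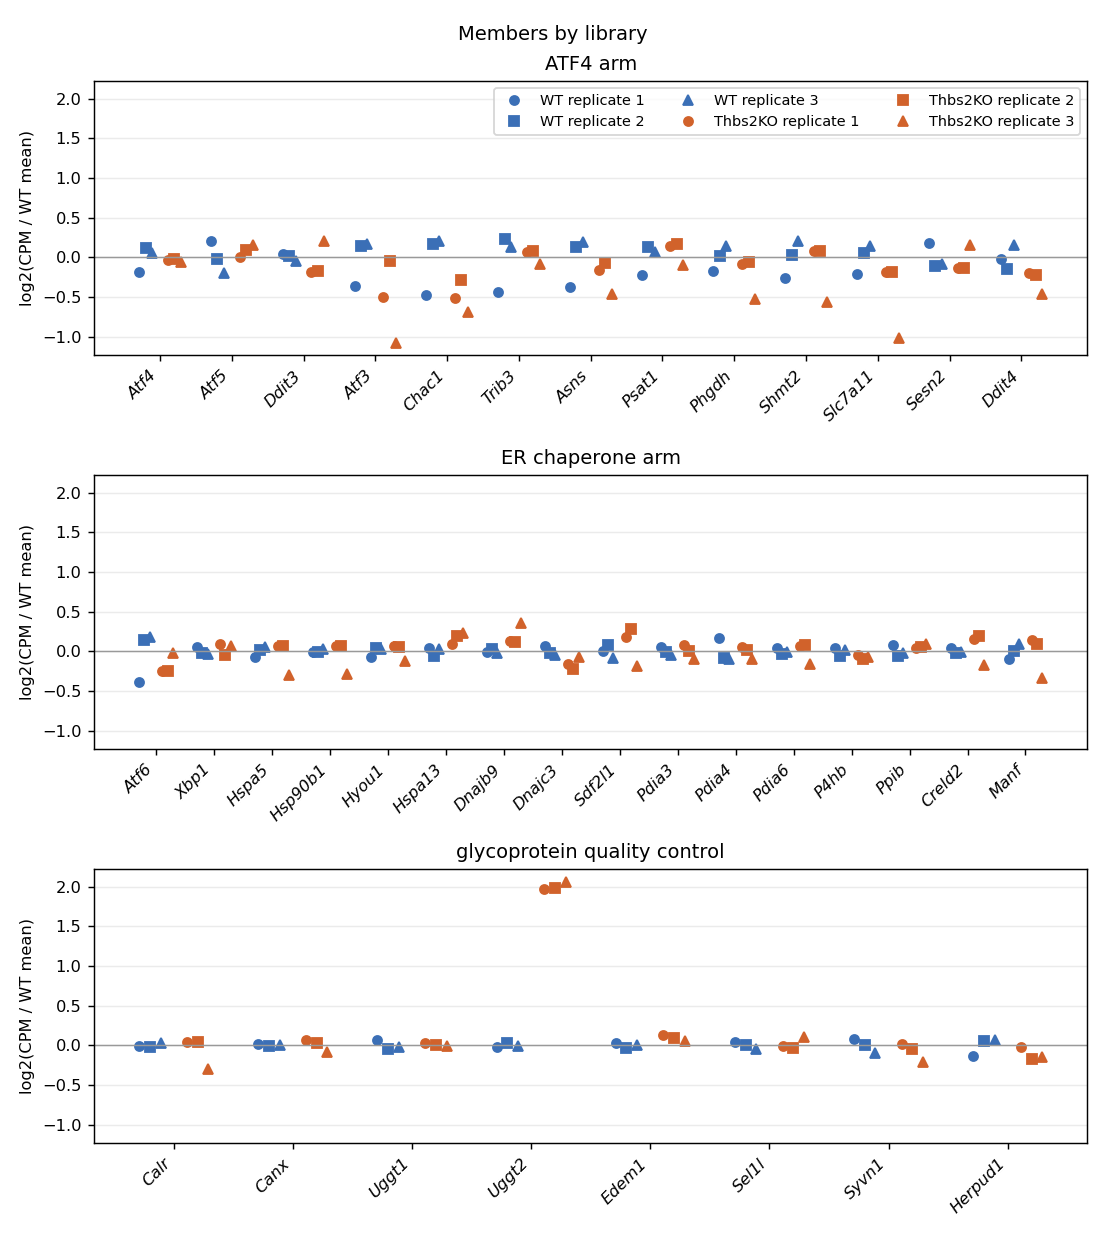
Log2 of the CPM of each member over its WT mean (y axis) in the 6 libraries, by arm in 3 panels; WT in blue, Thbs2KO in orange, with a symbol for each replicate number. Chaperone genes cluster near 0, genes of the ATF4 arm spread more, and Uggt2 is near 2 in all 3 Thbs2KO libraries.

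Promoters of this arm were searched because its members are the classical targets of ATF6 and XBP1. RefSeq promoters were found for 33 of the 37 members, and the 250 bases before the start were read on both strands. The ER stress element (ERSE), CCAAT and CCACG with 9 bases between them, was present in 5 of 12 promoters of the chaperone arm, 3 of 8 of the quality control arm and 0 of 13 of the ATF4 arm, against 0.13% of 27025 genes with a promoter in the table. The members had been listed as known stress targets, so this frequency is a description. The matches are shown because these are the letters that ATF6 and NF-Y are known to bind, with the fixed letters in capitals and the spacer in lower case, on the strand of the gene; those that begin with CGTGG are in reverse orientation.
Hspa5, 65 bases before the start: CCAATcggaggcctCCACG
Hsp90b1, 212 bases before: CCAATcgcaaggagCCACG
Hsp90b1, 107 bases before: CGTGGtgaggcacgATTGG
Dnajc3, 105 bases before: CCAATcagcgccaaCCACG
Pdia6, 98 bases before: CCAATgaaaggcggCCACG
Creld2, 126 bases before: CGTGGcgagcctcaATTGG
Calr, 162 bases before: CGTGGtcgaccctcATTGG
Canx, 145 bases before: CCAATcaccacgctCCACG
Syvn1, 44 bases before: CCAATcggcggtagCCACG
The 8 members with an ERSE had log2 fold changes from -0.15 for Dnajc3 to 0.06 for Creld2, with a median of -0.05, and 0 of them passed the test. The 25 members with a promoter and no ERSE, Uggt2 among them, had a median of -0.01. Herpud1 held the related ERSE-II, ATTGG and CCACG with 1 base between them, which was present in 0.037% of genes. The XBP1 element TGACGTGG was in 0 of the 33 promoters, against 0.603% of genes, which says only that these letters are not in these windows.

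In the ATF4 arm (13 genes) 0 members changed by edgeR or DESeq2. The median log2 fold change was -0.11, 10 of 13 values were negative where 50.9% of all tested genes were, and 0 were higher and 2 lower at an unadjusted p below 0.05. Shares of negative values also departed from 50.9% in other lists described below. They were 14 of 18 for cytosolic aminoacyl-tRNA synthetases and 4 of 19 for genes of entry into the ER. Levels in this arm spread more between libraries than in the chaperone arm: the highest library was a median of 1.57 times the lowest, against 1.22 in the chaperone arm, 1.15 in the quality control arm and 1.45 over all tested genes. The interval lay within 1.5-fold for 8 of 13 members. Atf4, the transcription factor of the arm, measured 325, 403 and 384 CPM in WT and 361, 365 and 355 CPM in Thbs2KO. The mean was 371 ± 40.4 CPM in WT and 360.5 ± 5.03 CPM in Thbs2KO (SD, n = 3), a log2 fold change of -0.04 with a 95% interval of -0.27 to 0.19 (edgeR, Benjamini-Hochberg adjusted p = 0.918). All 3 Thbs2KO libraries lay inside the WT range.

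The other transcription factors of the arm did not pass the test. Ddit3, which encodes the stress factor CHOP, measured 72.8, 71.6 and 68.6 CPM in WT and 62.3, 62.9 and 81.7 CPM in Thbs2KO (log2 fold change -0.04, 95% interval -0.32 to 0.24, edgeR Benjamini-Hochberg adjusted p = 0.932). Thbs2KO replicate 3 was its highest library and the other Thbs2KO libraries its lowest. A further gene identifier with the symbol Ddit3 had 0 reads in every library and was left out. Atf5, a factor related to ATF4, had a log2 fold change of 0.08. Atf3 was the lowest member per length, at 1.77, 2.50 and 2.56 CPM in WT and 1.61, 2.20 and 1.08 CPM in Thbs2KO. At this depth, down to 22 reads in a library, its 95% interval of -1.25 to 0.29 on the log2 scale includes a 2-fold decrease.

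Chac1 and Ddit4 had the smallest p of the arm. Chac1 encodes an enzyme that degrades glutathione and is a sensitive ATF4 target. It measured 25.5, 39.9 and 40.9 CPM in WT and 24.8, 29.0 and 21.9 CPM in Thbs2KO. WT replicate 1 lay within the Thbs2KO range and the other WT libraries above it. WT averaged 35.4 ± 8.62 CPM and Thbs2KO 25.2 ± 3.60 CPM (SD, n = 3), with a log2 fold change of -0.49 (SE 0.204, 95% interval -0.98 to -0.0030, edgeR Benjamini-Hochberg adjusted p = 0.373). Ddit4 encodes REDD1, an inhibitor of mTORC1 signalling. It measured 166, 152 and 187 CPM in WT and 147, 144 and 121 CPM in Thbs2KO, lower in all 3 (log2 fold change -0.29 with SE 0.112, adjusted p = 0.333). Its nearest libraries, WT replicate 2 and Thbs2KO replicate 1, were 5.0 CPM apart. Trib3, a pseudokinase that dampens the response, and Sesn2, a leucine sensor of mTORC1, had log2 fold changes of 0.02 and -0.03.

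The enzymes and the transporter of amino acid supply varied between libraries within each genotype. Asns, asparagine synthetase, measured 137, 194 and 204 CPM in WT and 160.0, 169 and 129.6 CPM in Thbs2KO. Phgdh and Psat1, enzymes of serine synthesis, and Shmt2, which makes glycine from serine in mitochondria, had log2 fold changes of -0.21, 0.07 and -0.11. Phgdh measured 202, 231 and 252 CPM in WT and 216, 219 and 158 CPM in Thbs2KO, and Shmt2 223, 271 and 306 CPM in WT and 280.4, 282 and 179.9 CPM in Thbs2KO. Slc7a11, the cystine transporter subunit xCT, measured 19.9, 24.0 and 25.4 CPM in WT and 20.2, 20.4 and 11.4 CPM in Thbs2KO (log2 fold change -0.42, 95% interval -0.98 to 0.15). In Asns, Phgdh, Shmt2 and Slc7a11 Thbs2KO replicate 3 was the lowest library and WT replicate 3 the highest. Phgdh was the one member with counts that were not whole, in 5 libraries, as RSEM gives where reads are divided between genes.

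The C/EBP-ATF response element that ATF4 binds, searched as TGATGNAA on both strands in the 250 bases before the start, was present in 4 of 13 promoters of the ATF4 arm and in Herpud1, against 3.91% of genes. The matches are shown because these are the letters that ATF4 is known to bind, with the fixed letters in capitals. Binding at these sites was not measured.
Atf3, 110 bases before the start: TTgCATCA
Chac1, 193 bases before: TTgCATCA
Asns, 23 bases before: TGATGaAA
Slc7a11, 66 bases before: TGATGcAA
Slc7a11, 47 bases before: TTgCATCA
Herpud1, 112 bases before: TTgCATCA
The 4 genes of the arm with a match had log2 fold changes of -0.48 for Atf3, -0.49 for Chac1, -0.22 for Asns and -0.42 for Slc7a11. Their median was -0.45, and 0 of them passed the test with all 6 libraries. Without Thbs2KO replicate 3 these values were -0.25, -0.40, -0.12 and -0.19, so for Atf3, Asns and Slc7a11 they moved by more than 1.5 times. Leaving out each library in turn gave -0.76 to -0.25 for Atf3, -0.68 to -0.37 for Chac1, -0.38 to -0.12 for Asns and -0.55 to -0.19 for Slc7a11. The other 9 had a median of -0.04 and a range of -0.29 to 0.08. For these 9 the lack of a match says only that the letters are not in these windows. This split was looked at after the values were known and was not tested. Over all tested genes with a promoter, the 246 with a match had a median of -0.0083 and the 9953 without one a median of -0.0042.

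The levels of the arms by library set Thbs2KO replicate 3 apart. Taking the log2 CPM of each gene minus its average over the 6 libraries, the mean of the ATF4 arm stood at -0.08, 0.15 and 0.18 in WT replicates 1, 2 and 3 and at -0.03, 0.04 and -0.25 in Thbs2KO replicates 1, 2 and 3. Thbs2KO replicate 3 was the lowest library for 7 of 13 genes of that arm and WT replicate 3 the highest for 7 of 13. The chaperone arm stood at -0.0055, -0.0052 and 0.0030 in WT and at 0.05, 0.04 and -0.07 in Thbs2KO, and Thbs2KO replicate 3 was the lowest for 9 of 16 genes. The quality control arm without Uggt2 stood at 0.02, 0.0049 and 0.0015 in WT and at 0.05, -0.0026 and -0.07 in Thbs2KO. The range over the Thbs2KO libraries was wider than the difference between the genotype means in all 3 of these groups of genes. In the ATF4 arm that difference was 0.17 in size, beside an SD of 0.14 in WT and 0.15 in Thbs2KO. Thbs2KO replicate 3 also had the lowest share of mitochondrial counts, 0.974% against 1.22% to 1.32% in the other libraries. It had the highest sum of fibroblast markers, 77194 CPM, with WT replicate 1 next at 70235 CPM and the others from 52428 to 59302 CPM. The part of these in the levels of the arms was not tested.

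Without both WT replicate 1 and Thbs2KO replicate 3, which leaves 2 libraries a group, 3 members were called lower (edgeR, Benjamini-Hochberg): Chac1 at -0.59, Asns at -0.27 and Atf6 at -0.41 on the log2 scale, with adjusted p of 0.00985, 0.0235 and 0.00456. The libraries kept were the most alike pair of each group. Their chi-square per degree of freedom was 15.6 in WT and 3.78 in Thbs2KO, against 53.0 to 68.3 for the other pairs within a group. These adjusted p values thus rest on a spread that the choice of libraries made small. In that fit 6.37% of all tested genes were called lower, and 11.2% in either direction, so 3 of 37 is near the background. Uggt2 was the 1 member called higher there, where 4.78% of all genes were.

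**Figure D4:**
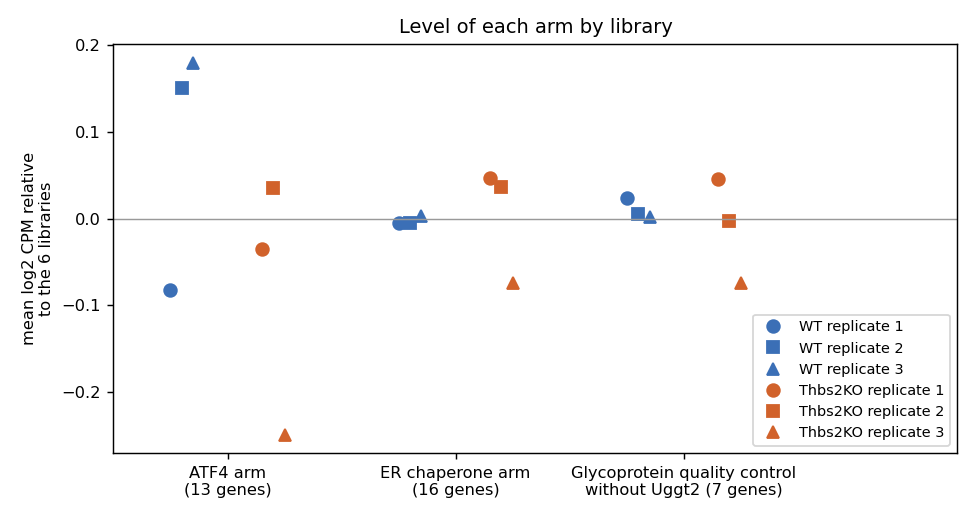
Mean log2 CPM of the genes of each arm relative to the 6 libraries (y axis), for the ATF4 arm, the ER chaperone arm and the glycoprotein quality control arm without Uggt2; WT in blue, Thbs2KO in orange, symbols for replicates 1 to 3. Thbs2KO replicate 3 is the lowest library in all 3 arms, at -0.25, -0.07 and -0.07.

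Other genes of the same pathways gave 1 call among 115 tested, Slc1a5, which fell. Over all tested genes 1.09% were called, 0.537% lower, so this count is near the background. Slc1a5 encodes ASCT2, a transporter of glutamine and other neutral amino acids. It measured 168, 170.7 and 162.5 CPM in WT and 113, 112.5 and 113 CPM in Thbs2KO. WT averaged 167 ± 4.14 CPM and Thbs2KO 112.9 ± 0.450 CPM (SD, n = 3), with a log2 fold change of -0.56 (SE 0.061, edgeR, Benjamini-Hochberg adjusted p = 0.0123). The value moved little, from -0.58 to -0.54, with 1 library left out. The call was lost on leaving out replicate 2 or 3 of WT (adjusted p = 0.065 and 0.0711) or replicate 1 or 2 of Thbs2KO (0.114 and 0.0928), with those last 2 summed (0.106) and with a replicate block (0.152). The other 17 genes of amino acid uptake and of serine, glycine and proline synthesis included 0 calls by edgeR. For Slc1a5, as for Uggt2, the part of the epithelial and endothelial markers was not tested.

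By unadjusted p below 0.05, 4 of the 115 genes were higher and 6 lower, against 5.72% and 7.56% of all tested genes. The DESeq2 counts of each list stand beside 2.22% of all genes called higher and 2.93% lower. Among 18 sensors and genes of eIF2alpha control edgeR called 0, 1 was higher and 2 lower by unadjusted p below 0.05, and DESeq2 called 0 higher and 1 lower, Creb3. Creb3, an ER membrane transcription factor, had the smallest p, at 63.1, 63.4 and 62.2 CPM in WT and 48.9, 50.8 and 53.9 CPM in Thbs2KO (log2 fold change -0.30, edgeR Benjamini-Hochberg adjusted p = 0.117, and 0.0205 by DESeq2). Among 18 cytosolic aminoacyl-tRNA synthetases, many of them ATF4 targets, edgeR called 0, 0 had an unadjusted p below 0.05, and DESeq2 called 0. Gars, the glycyl-tRNA synthetase, had the smallest p, with a log2 fold change of -0.19 (edgeR, adjusted p = 0.564). Among 21 further ER chaperones and oxidoreductases edgeR called 0, 1 was higher and 1 lower by unadjusted p, and DESeq2 called 0 higher and 1 lower, Fkbp10. Fkbp10, a prolyl isomerase and collagen chaperone, measured 526, 551 and 536 CPM in WT and 449, 452 and 436 CPM in Thbs2KO (log2 fold change -0.27, edgeR Benjamini-Hochberg adjusted p = 0.141, and 0.00239 by DESeq2). Among 19 genes of entry into the ER edgeR called 0, 2 were higher and 0 lower by unadjusted p, and DESeq2 called 1 higher and 0 lower, Srp54a. Srp54a, a subunit of the signal recognition particle, had a log2 fold change of 0.33 (edgeR, Benjamini-Hochberg adjusted p = 0.139), and its counts were not whole in all 6 libraries, so its level is uncertain. Among 21 further genes of glycoprotein quality control and degradation edgeR called 0 and DESeq2 0, and 0 were higher and 1 lower by unadjusted p, namely Prkcsh, the beta subunit of glucosidase II, at 226 ± 7.67 and 198 ± 4.92 CPM (SD, n = 3). The groups did not overlap for 11 of these 115 genes that were higher and 10 that were lower in Thbs2KO, shares near the 9.37% and 10.3% of all tested genes. Without both WT replicate 1 and Thbs2KO replicate 3, 6 of the 115 were called higher and 6 lower, beside 4.78% and 6.37% of all genes. Among them were Creb3, Gars and Fkbp10, which were lower, and Srp54a, which was higher (edgeR, Benjamini-Hochberg adjusted p = 0.0139, 0.0406, 0.0146 and 0.0215). That fit kept the most alike pair of libraries of each group, and this limit holds for these values too.

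Ordered by level per length, the 37 genes kept nearly the same places in both genotypes. Calr, P4hb, Hsp90b1, Pdia3 and Hspa5 were the 5 highest in WT and in Thbs2KO, from 671.5 to 384 CPM per kilobase in WT and from 642 to 371.5 in Thbs2KO. The WT means of Pdia3 and Hspa5, at 387 ± 13.02 and 384 ± 17.7 CPM per kilobase, did not differ beyond their spread. The lowest were Slc7a11, Uggt2 and Atf3 in both genotypes, in the order Slc7a11, Uggt2, Atf3 in WT (1.66 ± 0.205, 1.62 ± 0.030 and 1.06 ± 0.205 CPM per kilobase) and Uggt2, Slc7a11, Atf3 in Thbs2KO (6.48 ± 0.236, 1.24 ± 0.369 and 0.756 ± 0.262). Uggt2 and Slc7a11 were level within their spread in WT and apart in Thbs2KO.

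**Figure D5:**
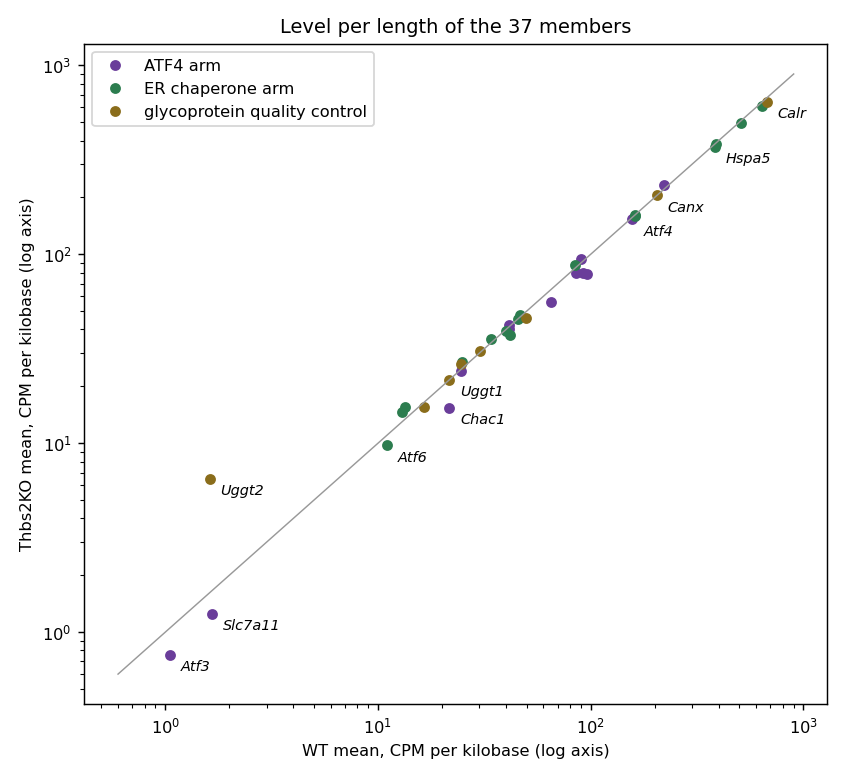
Mean CPM per kilobase of merged exons of the 37 members in WT (x axis, log scale) and Thbs2KO (y axis, log scale), coloured by arm, with the line of equal level. Uggt2, at 1.62 and 6.48 CPM per kilobase, is the point away from the line.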

How the data were processed

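The 6 libraries, 3 WT and 3 Thbs2KO, were read from 1 table. The authors deposited it in the unit of expected counts, which are read numbers per gene estimated by RSEM without scaling between samples. The submitters' processing notes name Trimmomatic 0.39, STAR 2.7.3a, RSEM and the build mm10; for RSEM the version, and for the counts the annotation, was not given in the sources used here. The library kit named in the labels' protocols, TruSeq RNA Sample Prep, does not mark strand. Reads shared by a member and a gene on the other strand thus cannot be assigned by strand. By gene span 16 members overlap such a gene, and shared reads were not measured. Values were rounded, filtered with filterByExpr and scaled with TMM; CPM uses those totals. Genotype was tested with the quasi-likelihood test of edgeR 4.0.16 in R 4.3.3, adjusted by Benjamini-Hochberg over 13590 genes at 0.05. Standard errors and 95% intervals were derived from the F statistic. Positions, merged exon lengths and overlaps are from GENCODE M21 (GRCm38, the build of mm10), and promoters from RefSeq GRCm38.p6. In counts simulated for Thbs2KO against WT (13590 genes), the test found 13 of 50 genes with a 1.5-fold change and 34 of 50 at 2-fold. It found 48 of 50 at 4-fold and 50 of 50 at 8-fold. It also called 13 genes that had not been changed, and 2 in a simulation where none was changed. Simulated counts were drawn independently for each library, which does not copy the likeness of Thbs2KO replicates 1 and 2.

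The members and lists were chosen with earlier results of these data known. Every member was described, with full statistics for those past the threshold, for the 2 of each arm with the smallest p and for Atf4, Ddit3, Atf6, Xbp1 and Hspa5. From each of the other pathway lists the genes past the threshold or, with none, the gene with the smallest p were named. The alternatives were other scaling (RLE, upper quartile), other tools (DESeq2 1.42.0, limma-voom from limma 3.58.1), no filter, a filter of 5 CPM in 3 libraries, estimation that was not robust, a replicate block, each library left out, WT replicate 1 and Thbs2KO replicate 3 both left out, and Thbs2KO replicates 1 and 2 summed. Figures were drawn with matplotlib 3.10.9.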

Additional observations from a re-analysis of the deposited data

How the results depend on the processing

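The count of members called was 1 higher and 0 lower in all alternatives but 1: without both WT replicate 1 and Thbs2KO replicate 3 it was 1 higher and 3 lower. The call of Uggt2 was kept in every alternative, and Uggt2 relative to Uggt1 ran from 1.95 to 2.03 (log2) with 1 library left out. Same-numbered libraries had residual correlations of -0.29, 0.17 and -0.33, and WT replicate 1 correlated best with Thbs2KO replicate 3. With 3 libraries a group the residuals offset one another, so these correlations cannot settle whether the numbers pair the libraries. The labels do not say whether they do. With a replicate block the members called were still 1 higher and 0 lower, while over all genes 30 passed instead of 148, and Slc1a5 did not pass (edgeR, Benjamini-Hochberg adjusted p = 0.152). Over all genes the count was 699 with DESeq2, 245 without a filter, 38 to 397 with 1 library left out (397 without WT replicate 1), 40 with Thbs2KO replicates 1 and 2 summed and 1519 without both WT replicate 1 and Thbs2KO replicate 3. Median log2 fold changes with 1 library left out ran from -0.22 to -0.070 in the ATF4 arm, -0.038 to 0.063 in the chaperone arm and -0.017 to 0.028 in the quality control arm; without both WT replicate 1 and Thbs2KO replicate 3 the last 2 were 0.065 and 0.043. Of the 43 genes followed, 20 changed sign in at least 1 alternative; none of these 20 was called in any fit, and their reported log2 fold changes were at most 0.11 in size. With 1 library left out these log2 fold changes ran for Atf4 from -0.13 to 0.035, Atf5 -0.010 to 0.20, Ddit3 -0.18 to 0.028, Trib3 -0.15 to 0.16, Psat1 -0.024 to 0.16, Shmt2 -0.22 to 0.079, Sesn2 -0.13 to 0.065, Hspa5 -0.11 to 0.065, Hsp90b1 -0.10 to 0.065, Hyou1 -0.033 to 0.061, Pdia3 -0.045 to 0.039, Pdia4 -0.058 to 0.080, Pdia6 -0.042 to 0.072, Creld2 -0.0026 to 0.17, Manf -0.11 to 0.11, Calr -0.12 to 0.041, Canx -0.028 to 0.048, Uggt1 -0.0086 to 0.041 and Sel1l -0.019 to 0.050. Without both WT replicate 1 and Thbs2KO replicate 3 they were -0.10 for Trib3, 0.028 for Hspa5, 0.060 for Hsp90b1, 0.065 for Pdia3, 0.12 for Pdia4, 0.090 for Pdia6, 0.064 for Manf, 0.035 for Calr and 0.024 for Syvn1. With Thbs2KO replicates 1 and 2 summed they were 0.023 for Ddit3, -0.00080 for Trib3, 0.018 for Sesn2, -0.026 for Hyou1, -0.017 for Canx and -1.2e-05 for Uggt1. Without a filter they were 0.014 for Pdia3, 0.0076 for Pdia4 and 0.019 for Pdia6, and for Pdia6 0.0035 with RLE scaling, 0.0040 with upper-quartile scaling and 0.0035 with DESeq2. The cause of these moves was not tested. Depth limits Atf3 most, at 22 reads in its lowest library.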
